A study of Rattus norvegicus with 18 samples.

Results

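The miR-199a and miR-214 microRNAs (miRNAs, small RNAs that lower the output of matching messenger RNAs) were followed across rat hearts as 4 of the 599 mature miRNAs listed. The members were rno-miR-199a-3p, rno-miR-199a-5p, rno-miR-214-3p and rno-miR-214-5p, chosen by name, with earlier results of these data known. Levels are in normalised reads per 1000000 (RPM), the deposited scale. Of the 4 members, 3 passed the filter on low values, at least 1 RPM in at least 6 libraries, as did 410 of the 599 miRNAs. rno-miR-214-5p did not pass and was not tested.

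Small RNA was sequenced from heart tissue in 18 libraries, 6 in each of 3 groups. The groups were SHR given QDG (labelled as QDG treatment), SHR (labelled as hypertension) and WKY (labelled as normal). SHR is the spontaneously hypertensive rat, an inbred strain with high blood pressure, and WKY is the normotensive Wistar Kyoto strain it is usually set against. The series text names NS and QDG as what the animals received, without saying which of them the WKY rats were given, and it spells out neither abbreviation. Nothing used here gives the dose, the duration, the sex or the age. SHR and WKY differ in strain as well as in blood pressure, and these cannot be told apart. The series text counts 6 rats per group, but no label ties a library to a rat. Should some libraries share an animal, part of the spread behind each p-value would be technical.

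The hairpins matched here to the members, Mir199a2 and Mir214, lie at a single locus. In human and mouse they are cut from one long noncoding transcript, DNM3OS, which runs antisense within the dynamin gene DNM3 and is active mainly in mesenchymal cells such as fibroblasts and vascular smooth muscle. Each hairpin can give a 5p and a 3p strand, of which one or both are loaded into Argonaute. The first bases of the loaded strand, the seed, choose the messages it binds. In heart muscle of mice miR-214 is known for restraining calcium entry through the exchanger Ncx1. miR-199a-5p is known for holding down Hif1a and Sirt1 in heart muscle cells, and miR-199a-3p for promoting cell cycle entry in newborn heart muscle cells.

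All 4 members matched the RefSeq miRNA table of build GRCr8 on the plus strand of chromosome 13. Their sequences are shown because the members share a locus but no seed, so each would bind its own set of messages. They run 5′ to 3′ and capitals mark the seed, bases 2 to 8.
rno-miR-199a-3p: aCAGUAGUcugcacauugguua
rno-miR-199a-5p: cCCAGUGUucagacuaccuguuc
rno-miR-214-3p: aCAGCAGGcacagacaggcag
rno-miR-214-5p: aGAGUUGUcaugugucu
No other mature sequence among the 724 in this table had the seed of a member, and 543 of the 599 listed miRNAs were in it. Each member had 1 locus in this table. The table is not complete, so other sharers of a seed, or other genes with the same mature sequence, may exist. Reads are counted per mature sequence. Below, the arms of the miR-199a hairpin are its listed rows, whichever gene gave the reads.

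miR-199a-5p lies at chr13:77116255-77116277 and miR-199a-3p at chr13:77116294-77116315, both in the hairpin gene Mir199a2 (chr13:77116225-77116334). miR-214-5p lies at chr13:77121656-77121672 and miR-214-3p at chr13:77121713-77121733, both in Mir214 (chr13:77121645-77121752). The hairpins are 5310 bases apart, and both lie inside the coordinates of Dnm3 (chr13:76892381-77371346). Another hairpin, Mir3120, overlaps Mir214 by 106 bases on the opposite strand and gives rno-miR-3120, so the same stretch of DNA is listed as a source of miRNA from both strands.

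The heart libraries held 6420666 to 10169581 reads over the listed miRNAs, and a single read was worth 0.135 to 0.225 RPM. A total of 3 reads, the limit that a count of 0 allows, correspond to 0.405 to 0.674 RPM. Cardiac muscle miRNAs made up a large share of the signal. The 8 cardiac muscle rows (miR-1, miR-133, miR-208 and miR-499 entries) held 38.8 ± 1.46% of the summed RPM in QDG, 40.2 ± 1.91% in SHR and 38.3 ± 2.59% in WKY libraries (SD, n = 6 each). They summed to 492525 to 584606 RPM in QDG libraries, 511203 to 594629 in SHR libraries and 506747 to 625613 in WKY libraries. The 12 rows of other stromal and smooth muscle miRNAs (both arms of miR-143, miR-145, miR-152, miR-140, miR-455 and miR-21) summed to 79222 to 105108 RPM in QDG, 71288 to 105923 in SHR and 73457 to 99113 in WKY libraries. The defining markers of heart muscle were thus abundant in every library, as the tissue label has it. Whether the members came from stromal cells or from heart muscle cells cannot be told apart in whole tissue, and neither can fewer cells of a type and less RNA per cell.

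miR-199a-3p was the most abundant member in all 3 groups. Its lowest, median and highest levels were 8554, 10876 and 12684 RPM in QDG hearts, 8892, 11084 and 13502 RPM in SHR hearts and 9080, 10974 and 11737 RPM in WKY hearts. The 3 groups overlapped over most of their range. The means were 10903 ± 1444 RPM in QDG, 11145 ± 1808 RPM in SHR and 10795 ± 943.1 RPM in WKY (SD, n = 6 each). This put miR-199a-3p between places 23 and 26 among the 599 miRNAs of each library, with 0.767% of miRNA reads in QDG, 0.798% in SHR and 0.749% in WKY.

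rno-miR-199a-5p, listed in the same hairpin, was several times scarcer. Its lowest, median and highest levels were 1864, 2391 and 2772 RPM in QDG hearts, 2031, 2226 and 3428 RPM in SHR hearts and 1768, 2128 and 2666 RPM in WKY hearts. One SHR library, number 5, stood above all others, and without it the SHR libraries reached 2294 RPM. Means were 2392 ± 308.5 RPM in QDG, 2390 ± 516.9 RPM in SHR and 2171 ± 314.7 RPM in WKY (SD, n = 6 each). The place of miR-199a-5p ran from 42 to 51 over the 18 libraries.

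rno-miR-214-3p, the strand of the neighbouring hairpin, was far scarcer again. Its lowest, median and highest levels were 57.4, 74.9 and 86.2 RPM in QDG hearts, 57.9, 72.9 and 115 RPM in SHR hearts and 59.0, 72.8 and 83.9 RPM in WKY hearts. SHR library 5 was again the highest, and the rest of the SHR libraries lay at or below 87.8 RPM. Means were 75.4 ± 10.2 RPM in QDG, 77.5 ± 21.8 RPM in SHR and 71.5 ± 10.01 RPM in WKY (SD, n = 6 each), and its place ran from 141 to 169. Each of these values rests on 278 to 661 reads. Counting error alone would give a coefficient of variation of 4.92% in QDG, 4.72% in SHR and 5.16% in WKY libraries, while the libraries varied by 13.6% in QDG, 28.1% in SHR and 14.0% in WKY. For miR-199a-3p the spread was 13.2% in QDG, 16.2% in SHR and 8.74% in WKY, with counting error at or under 0.417%.

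**Figure D1:**
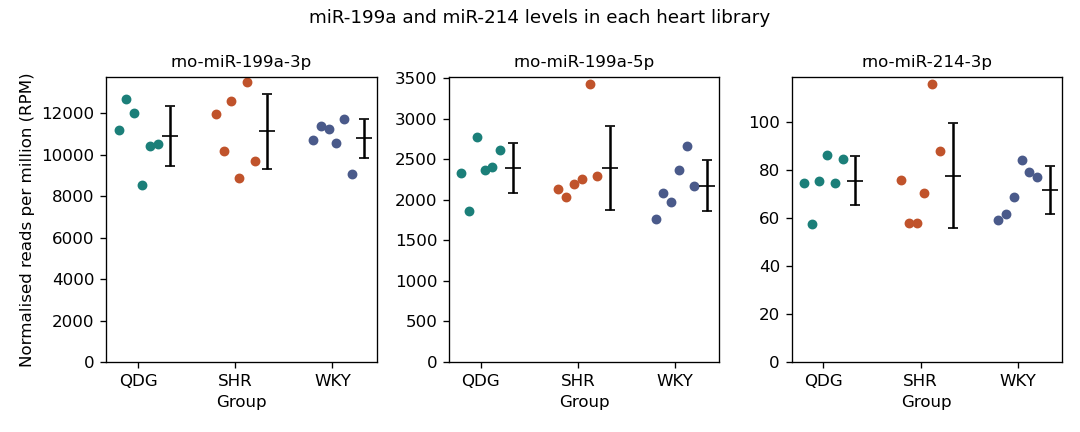
Level of rno-miR-199a-3p, rno-miR-199a-5p and rno-miR-214-3p in each of the 18 heart libraries, in RPM on a linear axis from 0, with QDG, SHR and WKY from left to right. Points are libraries in order of their number, and the bar beside them is the mean ± SD (n = 6). The 3 groups overlap in every panel, and 1 SHR library stands apart at 3428 RPM of miR-199a-5p and 115 RPM of miR-214-3p.

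Averaged over 18 libraries, the members stood at 10948 ± 1363, 2318 ± 383.6 and 74.8 ± 14.4 RPM (SD), for miR-199a-3p, miR-199a-5p and miR-214-3p in that order. Next above and below miR-199a-3p in mean level were rno-miR-24-3p (12306 ± 1405 RPM) and rno-miR-100-5p (9023 ± 1225 RPM). For miR-199a-5p these were rno-miR-133a-5p, a strand of a muscle hairpin (2358 ± 337.8 RPM), and rno-miR-145-5p, a smooth muscle miRNA (2254 ± 577.5 RPM). For miR-214-3p they were rno-miR-363-3p (76.2 ± 9.20 RPM) and rno-miR-30b-3p (71.3 ± 4.54 RPM). Each of these neighbours overlapped its member in range, so its place next to the member is not fixed beyond the spread. The ranges of the members themselves did not overlap.

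rno-miR-214-5p was almost unread. It had 4 reads in all 18 libraries together, 1 each in the libraries QDG 3, SHR 1, SHR 6 and WKY 1, and 0 in the other 14, where up to 3 reads remain possible. The exact Poisson interval of the sum is 1.09 to 10.2 reads. Set against miR-214-3p, with 7421 reads, miR-214-5p held 0.0539% of the reads of the hairpin's listed arms (exact binomial 95% interval 0.0147 to 0.138%). These intervals cover counting error only, since reads without molecular identifiers are not independent molecules.

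The position of the annotated miR-214-5p bears on what this row can count. The Mir214 hairpin (GRCr8, chr13:77121645-77121752, plus strand, 108 bases) is shown with the annotated 5p strand and then the annotated 3p strand in capitals.
Mir214: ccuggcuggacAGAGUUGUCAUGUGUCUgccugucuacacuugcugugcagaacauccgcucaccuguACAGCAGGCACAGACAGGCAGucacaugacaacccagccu
The annotated 5p strand covers bases 12 to 28 of the hairpin and is 17 bases long, and the 3p strand covers bases 69 to 89. In the minimum free energy fold computed with RNAfold (-67.5 kcal per mol), 18 bases of the 3p strand were paired, with partners between bases 27 and 47. Only 2 of these partners lay inside the annotated 5p strand, and the rest followed it. The 13 paired bases of the annotated 5p strand had their partners from base 88 onward, of which at most 2, bases 88 and 89, lie in the 3p strand. The stretch that faces miR-214-3p in this fold thus has almost no overlap with the row named miR-214-5p. Nothing used here says how reads from that stretch were counted, and the low count of rno-miR-214-5p is a statement about its listed sequence only.

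rno-miR-3120, from the opposite strand, was low but present in every library.
rno-miR-3120: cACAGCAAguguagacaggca
It had 73 reads in 18 libraries (exact Poisson interval 57.2 to 91.8), with 1 to 10 reads in each. Means were 1.03 ± 0.549 RPM in QDG hearts, 0.605 ± 0.244 RPM in SHR hearts and 0.592 ± 0.273 RPM in WKY hearts (SD, n = 6 each), below the filter, so it was not tested. The longest run of bases that rno-miR-3120 shares with miR-214-3p is 9, and its seed, in capitals, differs from those of all 4 members. Over the locus, then, the 3p strand of Mir214 had 7421 reads, the antisense miRNA 73 and the listed 5p strand 4.

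The first question the design sets is whether the locus differs in hypertensive hearts. No member passed the test in SHR against WKY, where 95 of the 410 miRNAs tested, 23.2%, had an adjusted p under 0.05 by limma with Benjamini-Hochberg adjustment. Of the 410, 8.05% were called higher in SHR and 15.1% lower, 33 and 62 miRNAs, and 10.2% had libraries that did not overlap between the groups. The split moved with the scaling, with 46 of 93 calls higher under relative log expression (RLE) scaling and 52 of 96 higher by DESeq2.

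rno-miR-199a-3p differed by 0.03 ± 0.10 log2 units (SE; 95% interval -0.18 to 0.25, or 0.885-fold to 1.19-fold; limma adjusted p = 0.854) in SHR against WKY, with 3 of 6 SHR libraries above the WKY mean. rno-miR-199a-5p differed by 0.13 ± 0.12 (-0.12 to 0.37, or 0.923-fold to 1.29-fold; limma adjusted p = 0.497), with 4 of 6 SHR libraries above. rno-miR-214-3p differed by 0.08 ± 0.14 (-0.21 to 0.37, or 0.866-fold to 1.30-fold; limma adjusted p = 0.731), with 3 of 6 above. All 3 estimates were above 0, and the libraries of the groups overlapped for each. The largest rise inside these intervals was 1.30-fold, for miR-214-3p. The estimates rested in part on SHR library 5: without it they were -0.02 for miR-199a-3p, 0.02 for miR-199a-5p and -0.04 for miR-214-3p. Without WKY library 1 they were 0.03, 0.07 and 0.03 for the same members. Other scalings and the count tools gave larger estimates. The largest were those of DESeq2, 0.12 for miR-199a-3p, 0.22 for miR-199a-5p (adjusted p = 0.112, unadjusted 0.0354) and 0.20 for miR-214-3p. Under RLE scaling miR-199a-5p was at 0.20 (limma adjusted p = 0.130, unadjusted 0.0445).

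The second question is whether QDG moved the locus in SHR. No miRNA passed the test in QDG against SHR, 0% of 410 by limma, and 0% had libraries that did not overlap. At an unadjusted p under 0.05 limma listed 15 miRNAs, edgeR's quasi-likelihood test 18, DESeq2 20 and limma-voom 19, and the last 3 also called 0 after adjustment. rno-miR-199a-3p differed by -0.03 ± 0.10 log2 units (95% interval -0.24 to 0.18, or 0.848-fold to 1.14-fold; limma adjusted p = 0.983). rno-miR-199a-5p differed by 0.01 ± 0.12 (-0.23 to 0.26, or 0.853-fold to 1.20-fold; limma adjusted p = 0.983). rno-miR-214-3p differed by -0.0087 ± 0.14 (-0.30 to 0.28, or 0.812-fold to 1.22-fold; limma adjusted p = 0.986). The number of QDG libraries above the SHR mean was 3, 3 and 2 of 6. A level in QDG hearts under 0.812-fold or over 1.22-fold of that in SHR hearts lies outside the 95% interval of all 3 members. Without SHR library 5, the highest SHR library for each member, the estimates were 0.03, 0.12 and 0.11, none past the threshold.

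QDG against WKY shares its libraries with both comparisons above, so it is no independent evidence on either. There 73 of 410 miRNAs, 17.8%, passed, 7.32% higher in QDG and 10.5% lower (30 and 43), and 8.05% had libraries that did not overlap. Under RLE scaling 42 of 82 calls were higher and by DESeq2 46 of 87. No member was among them. The estimates were 0.0081 ± 0.10 log2 units for rno-miR-199a-3p (95% interval -0.20 to 0.22; limma adjusted p = 0.966), 0.14 ± 0.12 for rno-miR-199a-5p (-0.10 to 0.38; limma adjusted p = 0.457) and 0.07 ± 0.14 for rno-miR-214-3p (-0.22 to 0.37; limma adjusted p = 0.754). For both miR-199a-5p and miR-214-3p 5 of 6 QDG libraries were above the WKY mean, against 3 of 6 for miR-199a-3p. Without WKY library 1 the estimates were 0.085 for miR-199a-5p and 0.0225 for miR-214-3p.

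The members were set beside other miRNAs of stromal cells. Of the 12 other stromal and smooth muscle rows, 1 was called higher and 0 lower in SHR against WKY, beside 23.2% called among all 410. At an unadjusted limma p under 0.05 there were 5 of the 12, beside 141 of all 410. The median change of the list was -0.08 log2 units, beside -0.07 over all 410. The row called was rno-miR-21-5p, an abundant miRNA of fibroblasts known to promote cardiac fibrosis in mice. It averaged 23380 ± 2057 RPM in QDG hearts, 23706 ± 6058 RPM in SHR hearts and 17299 ± 980.3 RPM in WKY hearts (SD, n = 6 each). Its change was 0.42 ± 0.11 log2 units in SHR against WKY (limma adjusted p = 0.00513), with 6 of 6 SHR libraries above the WKY mean. Without SHR library 5 the change was 0.30 (limma adjusted p = 0.0108). In QDG against WKY it was 0.43 ± 0.11 (limma adjusted p = 0.00436), and the libraries of the groups did not overlap. It was also the only one of the 12 called in QDG against WKY, beside 17.8% called among all 410. The list's median there was 0.06, beside -0.06 over all 410.

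**Figure D2:**
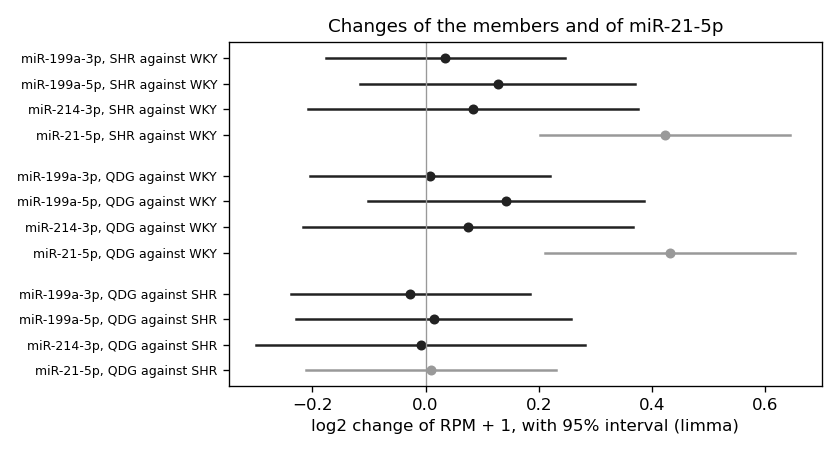
Log2 change of RPM + 1, with its 95% interval from limma, for the 3 tested members (black) and for miR-21-5p (grey), in SHR against WKY, QDG against WKY and QDG against SHR from top to bottom. The intervals of the members all include 0, and those of miR-21-5p lie above 0 in both comparisons with WKY and include it in QDG against SHR.

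The smooth muscle miRNAs miR-143 and miR-145, background markers of vessel walls, gave no call. rno-miR-143-3p averaged 57302 ± 7051 RPM in QDG, 50452 ± 8259 RPM in SHR and 59615 ± 9633 RPM in WKY hearts (SD, n = 6 each). Its change was -0.24 log2 units in SHR against WKY (limma adjusted p = 0.118) and 0.19 in QDG against SHR (limma adjusted p = 0.983). rno-miR-145-5p changed by -0.24 in SHR against WKY (limma adjusted p = 0.497), and rno-miR-455-3p, a miRNA known from cartilage whose level lies close to that of miR-214-3p, by -0.26 (limma adjusted p = 0.0901). These 3 rows were picked after their values were seen and do not stand for the list. Its 12 changes in SHR against WKY ran from -0.26 to 0.51, with 4 on the higher side, beside 170 of 410 over all miRNAs. In QDG against SHR 11 of the 12 stromal rows were on the higher side, with a median of 0.08, beside 222 of 410 and a median of 0.02 over all miRNAs. Of the 3 tested members 1 was on the higher side, with a median of -0.0087. Without SHR library 5 the members had 3 of 3 on the higher side with a median of 0.11, the stromal rows 12 of 12 with 0.13 and all miRNAs 242 of 410 with 0.03. That library was the highest of its group for all 3 members, so leaving it out could only raise their estimates. No test of the members against this list was made.

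Marker lists of the remaining cell types are given beside these results, and their part in them was not tested. Of the 8 cardiac muscle rows, 2 were higher and 0 lower in SHR against WKY and in QDG against WKY, beside 23.2% and 17.8% called among all 410. The list as a whole lay close to all miRNAs, with medians of -0.06 and -0.05 log2 units, beside -0.07 and -0.06 over all. On the higher side were 3 of 8 and 2 of 8, beside 170 of 410 in both comparisons. Those called were rno-miR-1-3p (0.74 ± 0.08 and 0.70 ± 0.08 log2 units, limma adjusted p = 3.34e-08 and 9.46e-08) and rno-miR-208b-3p, cut from an intron of the slow myosin gene (0.89 ± 0.16 and 0.72 ± 0.16, limma adjusted p = 0.000132 and 0.00136). Of the 2 endothelial rows, both arms of miR-126a, and of the 4 red blood cell rows (miR-144, miR-451 and miR-486) none was called in any comparison. Of the 4 leukocyte rows, rno-miR-142-3p was called in QDG against WKY (0.38 ± 0.13, limma adjusted p = 0.0422), a call that was lost under 11 of the 33 alternatives, and none was called in SHR against WKY.

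The ratio of members within a library does not depend on how that library was scaled. miR-199a-5p was lower than miR-199a-3p by a log2 ratio of -2.19 ± 0.32 in QDG, -2.23 ± 0.25 in SHR and -2.32 ± 0.23 in WKY hearts (SD, n = 6 each), or 4.556-fold, 4.688-fold and 4.998-fold. It therefore made up 18.2 ± 3.03% of the reads of the 2 miR-199a rows in QDG, 17.7 ± 2.48% in SHR and 16.8 ± 2.19% in WKY. The arm ratio differed by 0.09 log2 units in SHR against WKY (two-sided exact permutation p = 0.515), 0.04 in QDG against SHR (exact permutation p = 0.807) and 0.13 in QDG against WKY (exact permutation p = 0.409). No difference in the balance of the 2 miR-199a rows was detected by this test.

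Between the hairpins the ratio of miR-214-3p to miR-199a-3p was -7.18 ± 0.38 log2 units in QDG, -7.20 ± 0.38 in SHR and -7.24 ± 0.27 in WKY (SD, n = 6 each), or 145-fold, 147-fold and 152-fold lower. It differed by 0.05 in SHR against WKY (exact permutation p = 0.792), 0.02 in QDG against SHR (exact permutation p = 0.935) and 0.07 in QDG against WKY (exact permutation p = 0.734). Over the 6 ratio tests every adjusted p was 0.935, and 6 against 6 libraries can reach 0.00216. The ratio of miR-214-3p to miR-199a-5p was -4.99 ± 0.14, -4.97 ± 0.20 and -4.92 ± 0.12 in QDG, SHR and WKY. Over 18 libraries this last ratio had an SD of 0.15, against 0.26 for the arms of the miR-199a hairpin and 0.33 for miR-214-3p over miR-199a-3p. These levels carry the preferences of the library kit for particular ends, so they are not molar ratios.

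The steadiness of that ratio showed in the library-to-library relation. Across 18 libraries rno-miR-214-3p and rno-miR-199a-5p, strands of different hairpins, had a Pearson r of 0.824 (permutation p = 5.00e-05, adjusted over 3 relations 0.000150) and a Spearman rho of 0.721 (permutation p = 0.00107, adjusted 0.00321). Within groups r was 0.777 in QDG, 0.863 in SHR and 0.824 in WKY. Without the libraries SHR 5 and QDG 2, farthest from the median of miR-214-3p, r was 0.656. The arms of the miR-199a hairpin had an r of 0.215 (permutation p = 0.392, adjusted 0.588) and a rho of 0.036 (permutation p = 0.890, adjusted 0.890). Without WKY 1 and SHR 5 their r was -0.105, and within QDG, SHR and WKY it was -0.276, 0.533 and 0.154. miR-214-3p and miR-199a-3p had an r of -0.0536 (permutation p = 0.833, adjusted 0.833) and a rho of -0.232 (permutation p = 0.349, adjusted 0.523). Their r was -0.355 without SHR 5 and QDG 2, and -0.779, 0.318 and -0.239 within QDG, SHR and WKY. No test of the difference between these correlations was made, and all values of a library share its divisor. The permutations exchanged all 18 libraries freely, across groups and library numbers. Their p-values therefore take no account of differences between groups or between sets of numbers.

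**Figure D3:**
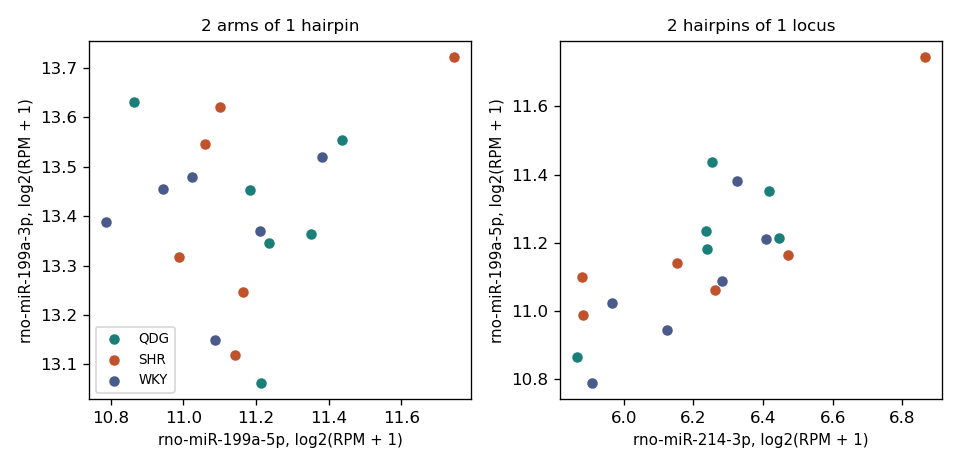
Levels as log2(RPM + 1) in 18 libraries, coloured by group. Left, rno-miR-199a-5p (horizontal) against rno-miR-199a-3p (vertical), the arms of a hairpin, with r = 0.215. Right, rno-miR-214-3p (horizontal) against rno-miR-199a-5p (vertical), from different hairpins, with r = 0.824, with SHR library 5 at the upper right of both panels.

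The replicate number in the titles, whose meaning the labels do not give, moved with the arm ratio. In each group the libraries numbered 4 to 6 had a higher ratio of miR-199a-5p to miR-199a-3p than the libraries numbered 1 to 3. In QDG the log2 ratios ran from -2.11 to -1.85 in libraries 4 to 6, against -2.77 to -2.12 in libraries 1 to 3. In SHR they ran from -2.08 to -1.98, against -2.52 to -2.33, and in WKY from -2.16 to -2.06, against -2.60 to -2.46. The mean difference was 0.39 log2 units in QDG, 0.43 in SHR and 0.40 in WKY, larger than any difference between groups. The split was seen in these values, so it carries no test. It also adds to the spread within each group. With labels exchanged only within each set, a test added after the split was seen, the arm ratio in SHR against WKY gave an exact permutation p of 0.055 (adjusted over 6 ratio tests 0.33). The difference there was 0.08 log2 units in libraries 1 to 3 and 0.11 in libraries 4 to 6. The other 5 exact permutation p-values of this kind ran from 0.215 to 0.89, where 0.005 is the smallest possible. The sets were picked for their split in the arm ratio itself, so nothing is read from these p-values.

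The ratio of miR-214-3p to miR-199a-3p was split in the same way, by 0.54 in QDG, 0.63 in SHR and 0.44 in WKY, again without overlap in any group. It shares miR-199a-3p with the arm ratio for which the sets were picked, so its split is no separate observation. The ratio of miR-214-3p to miR-199a-5p overlapped in every group. Of 129 hairpins with both arms above the filter, 3 or 2.33% had arm ratios that did not overlap between these sets in all 3 groups, and the others were miR-145 and miR-181a-2. Taken alone, no member was split in all 3 groups, and only 1 of the 410 miRNAs tested was. miR-199a-3p was lower in libraries 4 to 6 without overlap in QDG, miR-199a-5p higher in SHR and WKY, and miR-214-3p higher in WKY. The share of all miRNAs split within single groups is not given here, so nothing particular to the members is read from this. Since every group holds 3 libraries of each set, the split is not confounded with group.

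**Figure D4:**
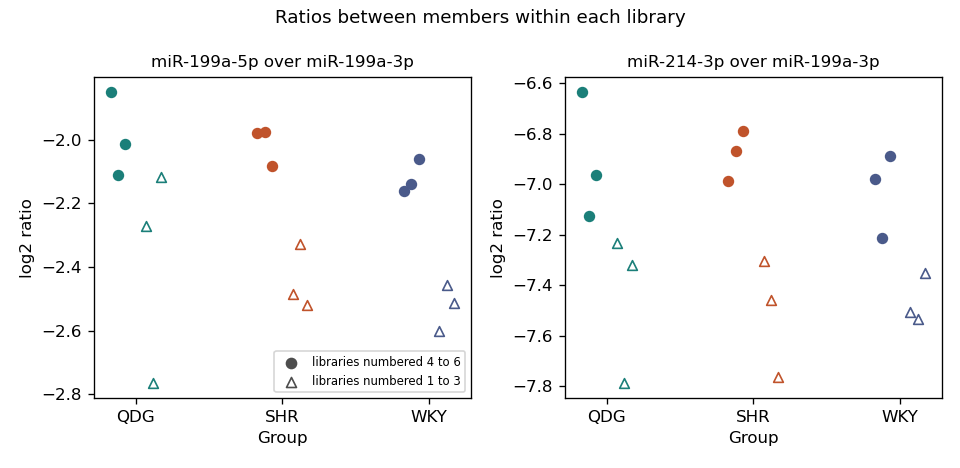
Log2 ratio of miR-199a-5p to miR-199a-3p (left) and of miR-214-3p to miR-199a-3p (right) in each library, with QDG, SHR and WKY from left to right. Filled circles are the libraries numbered 4 to 6 and open triangles those numbered 1 to 3. In each group and for both ratios all circles lie above all triangles, while the groups overlap.

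The relations between members differed in value between these sets of 9 libraries. The arms of the miR-199a hairpin had an r of 0.268 in libraries 1 to 3 and 0.886 in libraries 4 to 6 (0.767 without SHR 5). miR-214-3p with miR-199a-5p had an r of 0.650 in libraries 1 to 3 and 0.815 in libraries 4 to 6, where it was 0.254 without SHR 5. miR-214-3p with miR-199a-3p had an r of 0.0819 in libraries 1 to 3 and 0.654 in libraries 4 to 6, or 0.109 without SHR 5. The sets were picked for a split in the arm ratio itself, so an r of the arms within a set is not independent of that choice, and nothing is read from it. The correlation of miR-214-3p with miR-199a-5p rested on SHR library 5 within libraries 4 to 6.

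The miRNAs whose library-to-library pattern was most like each member were ranked by the r of deviations from the group mean, over 18 libraries and among 409 miRNAs, as a description. For rno-miR-199a-3p the likest were rno-miR-146a-3p (0.79), rno-miR-374-5p (0.78), rno-miR-450b-3p (0.77), rno-miR-125b-5p (0.75) and rno-miR-181a-1-3p (0.72). Its partner strand rno-miR-199a-5p came at place 146 (0.21) and rno-miR-214-3p at place 279 (-0.06). For rno-miR-199a-5p the likest were rno-miR-93-5p (0.87), rno-miR-221-3p (0.85), rno-miR-214-3p (0.83), rno-miR-223-3p (0.80) and rno-miR-23b-3p (0.80). For rno-miR-214-3p they were rno-miR-132-3p (0.91), rno-miR-222-3p (0.83), rno-miR-199a-5p (0.83), rno-miR-140-3p (0.81) and rno-miR-143-3p (0.81). miR-199a-5p and miR-214-3p thus each held the third place in the other's ranking. These rankings include SHR library 5. Without SHR 5 and QDG 2 the r between the levels of this pair was 0.656, and in libraries 4 to 6 without SHR 5 it was 0.254.

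Against this, the median r over all 409 was 0.086 for miR-199a-3p, 0.294 for miR-199a-5p and 0.200 for miR-214-3p, so positive values were common. Of the 12 other stromal and smooth muscle rows, 5 had an r above 0 with miR-199a-3p (median -0.06), 12 with miR-199a-5p (median 0.52) and 11 with miR-214-3p (median 0.48). Over all 409 the share above 0 was 60.4%, 75.6% and 67.2% for the same members. Of the 8 cardiac muscle rows, 8 were above 0 with miR-199a-3p (median 0.21), 5 with miR-199a-5p (median 0.28, from -0.57 to 0.52) and 5 with miR-214-3p (median 0.07, from -0.66 to 0.34). Of the 4 leukocyte rows, 3 were above 0 with each member, with medians of 0.06, 0.36 and 0.35 for miR-199a-3p, miR-199a-5p and miR-214-3p. Among the 2 endothelial rows, 2, 1 and 1 were above 0 with the same members, with medians of 0.41, 0.06 and -0.16. Among the 4 red blood cell rows these numbers were 2, 4 and 2, with medians of 0.11, 0.19 and -0.03.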

How the data were processed

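Per the labels' protocols, heart RNA was taken up in Trizol and 1 µg per sample was made into libraries with a NEBNext small RNA kit. FastQC, TopHat2 and limma appear in the submitters' processing notes, without versions or roles. Which genome build and annotation were used, and how reads that fit several miRNAs were treated, is not stated there. The deposited values are a normalised signal per mature miRNA, per the file headers. In each library they were whole multiples of 1 step, and 10782 of 10782 lay within 0.01 of a whole read. They thus appear to be reads divided by a number particular to the library, per 1000000, and sum to over 1000000.

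limma (3.58.1, R 4.3.3; trend and robust moderation) was fitted to log2(RPM + 1) of 410 miRNAs in all 18 libraries, with no covariate. With a pseudocount of 1 RPM, fold changes understate what happens to scarce miRNAs. Adjusted p-values are Benjamini-Hochberg over 410 with a threshold of 0.05. The count tools edgeR (4.0.16) and DESeq2 (1.42.0), and limma-voom, were run on the recovered reads as alternatives. Ratios were compared by two-sided exact permutation tests (Python 3.11.15, scipy 1.17.1), and correlations by 100000 permutations. The hairpin was folded with RNAfold (2.7.2). The limma fit was tested on simulated data whose set changes were larger than the estimates of the members. That run therefore says nothing on the power to find changes of their size. Groups and numbers came from the titles. The members, the marker lists, the unit and the tests were chosen with earlier results of these data known. Named miRNAs are the members, the 5 likest to each, the nearest in level, and the lists. From the lists, those called were named, and 3 others (miR-143-3p, miR-145-5p and miR-455-3p) were picked after their values were seen.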

Additional observations from a re-analysis of the deposited data

Results flagged for a closer look

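In the SHR group, library 5 had 3428 RPM of rno-miR-199a-5p, while the other 5 SHR libraries had 2031 to 2294 RPM, a gap beyond Dixon's 95% critical value for 6 samples. Of 18 sets of 6 libraries checked, this was the only one, and chance gives about 1 in 20. The same library was also the highest of its group in rno-miR-199a-3p (13502 RPM) and rno-miR-214-3p (115 RPM), neither beyond that value. Its 7865372 miRNA reads lay within the range of the other libraries.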

How the results depend on the processing

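Under 33 alternatives no member passed the threshold in any comparison, and the smallest adjusted p was 0.112 (limma or a count tool; rno-miR-199a-5p, SHR against WKY). Estimates near 0 changed sign. Without WKY 1 and SHR 5, SHR against WKY gave -0.0246 (miR-199a-3p), -0.0381 (miR-199a-5p) and -0.0911 (miR-214-3p), QDG against SHR gave 0.0317 (miR-199a-3p) and 0.11 (miR-214-3p), and the SHR against WKY ratios gave -0.0135 (arms) and -0.0679 (miR-214-3p over miR-199a-3p). For miR-199a-5p in QDG against SHR, TMM scaling gave -0.0084, RLE -0.0164, the total of listed reads -0.0116, that total without the 10 most abundant -0.0358, edgeR -0.0196, DESeq2 -0.0294 and limma-voom -0.0087. In SHR against WKY, TMM and RLE scaling gave 0.0854 and 0.112 for miR-199a-3p, 0.18 and 0.20 for miR-199a-5p, and 0.13 and 0.16 for miR-214-3p. In QDG against WKY RLE scaling gave 0.0545, 0.19 and 0.12. Scaling moved the median of all miRNAs by at most 0.07 log2 units. Leaving out each library in turn gave these ranges. In SHR against WKY miR-199a-3p ran from -0.0236 to 0.0969 and miR-214-3p from -0.0388 to 0.16. In QDG against SHR miR-199a-3p ran from -0.0888 to 0.0409, miR-199a-5p from -0.0303 to 0.12 and miR-214-3p from -0.0829 to 0.11. In QDG against WKY miR-199a-3p ran from -0.0408 to 0.0759, miR-199a-5p from 0.085 to 0.21 and miR-214-3p from 0.0225 to 0.15. The arm ratio in QDG against SHR ran from -0.0264 to 0.16. The ratio of miR-214-3p to miR-199a-3p ran from -0.0319 to 0.16 in SHR against WKY, from -0.0953 to 0.14 in QDG against SHR and from -0.0411 to 0.19 in QDG against WKY. Calls over all miRNAs ranged from 65 to 106 in SHR against WKY (95 as reported) and from 57 to 87 in QDG against WKY (73 as reported), and stayed at 0 in QDG against SHR. With the replicate number as a block they were 93, 77 and 0. Libraries of the same number did not deviate together (r from -0.174 to 0.232, and 1 of 18 was closest to its own number), so the number was not taken to pair single libraries, although libraries 4 to 6 and 1 to 3 differed in the member ratios. Depth limits rno-miR-214-5p and rno-miR-3120, which were not tested.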
